A study of Homo sapiens with 10 samples.

Results

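The genes described here are 7 transcription factors of the prostate luminal lineage, FOXA1, HOXB13, GATA2, SPDEF, GRHL2, SOX9 and CREB3L4, chosen by name from the 57353 gene symbols of the count table. All 7 were among the 17230 genes that passed the filter on low counts. RNA came from 10 samples of 4 lentiviral lines made from LNCaP-C4-2 cells, which descend from LNCaP prostate cancer cells and grow without androgen. Cells with a non-targeting shRNA (NT, n = 2) were the control for cells with 1 shRNA against CPT1A (KD, n = 3), both selected with puromycin at 1 µg/ml. Cells with empty virus (EV, n = 2) were the control for cells over-expressing the CPT1A open reading frame (OE, n = 3), both selected with blasticidin at 5 µg/ml. No separate transductions of the same line are described, so p-values measure only the spread between these samples. Total counts per sample ranged from 23555205 to 28615770. KD replicate 2 stood apart from the other KD samples, its chi-square over degrees of freedom being 6.51 and 6.63 against 2.24 between those, and so did OE replicate 2, with 3.78 and 4.34 against 2.13. Calls of the factors that change without either of them are given with the value without it.

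Luminal cells of the prostate are secretory cells whose identity depends on a set of transcription factors. FOXA1 and GATA2 bind closed chromatin and open it for other factors, and HOXB13 shares many of their sites. SPDEF and CREB3L4 belong to the secretory programme, GRHL2 maintains epithelial junctions, and SOX9 is a factor of prostate development that is also found in basal cells. CPT1A, the target of both manipulations, loads long-chain fatty acids onto carnitine for import into mitochondria.

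CPT1A itself followed the labels of all 10 samples. Its level, in CPM scaled by TMM, was 265 and 262 in the NT samples and 81.2, 86.4 and 86.2 CPM in the KD samples. In the EV samples it was 326 and 318 CPM, and in the OE samples 869.8, 914 and 861 CPM. CPT1A therefore moved in opposite directions in the 2 arms, with a log2 fold change of 1.45 ± 0.05 (SE) in OE versus EV (the OE arm) and -1.64 ± 0.05 in KD versus NT (the KD arm). The controls differed as well, by 0.29 ± 0.05 in EV versus NT (adjusted p = 9.80e-05, edgeR's quasi-likelihood test with Benjamini-Hochberg adjustment). That call held in 2 of the 10 fits without 1 sample, those without KD replicate 2 or OE replicate 2, and CPT1A had 0.26 to 0.31 in the other 8. DESeq2 size factors (0.29) or a filter of 10 counts in each sample (0.27) also ended it.

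The lineage factors did not follow that opposition. In OE versus EV, 6 of the 7 factors rose (HOXB13, SPDEF, GATA2, CREB3L4, FOXA1 and GRHL2) at an adjusted p under 0.0001, where 11.6% of all tested genes were called as higher and 10.3% as lower. Their log2 fold changes ran from 0.25 for GRHL2 to 0.72 for HOXB13, and SOX9 had -0.27 without passing the limit. The median over the 7 was 0.30, beside -0.02 over all tested genes. DESeq2 and limma-voom also called 6, where 13.4% and 11.2% of all tested genes were higher. The count fell to 3 (HOXB13, GATA2 and SPDEF) without EV replicate 1, EV replicate 2 or OE replicate 1, where the share of all tested genes called as higher also fell, from 11.6% to 6.44%, 5.16% and 9.33%. It was 4 without OE replicate 2, where 9.39% were higher. When samples were scaled by library size alone it was also 3, and 7.08% of all tested genes were higher. That scaling moved the share of higher genes among all calls from 53% to 36%.

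In KD versus NT, 5 of the 7 factors rose (SPDEF, CREB3L4, GATA2, GRHL2 and HOXB13), where 16.4% of all tested genes were called as higher and 12.8% as lower. The median log2 fold change over the 7 was 0.49, beside -0.02 over all tested genes, and all 7 had a positive sign. FOXA1 missed the limit with 0.21 ± 0.04 and an adjusted p of 2.36e-04 in edgeR's quasi-likelihood test with Benjamini-Hochberg adjustment, and passed it in DESeq2 and limma-voom, which called 6, where 17.3% and 15.9% of all tested genes were higher. Without KD replicate 2 the count stayed at 5. Higher in both arms were 5 of the 7 factors, HOXB13, GATA2, SPDEF, GRHL2 and CREB3L4, against 5.3% of all tested genes (913 of 17230). GRHL2 and CREB3L4 left this group without EV replicate 1 or 2 or OE replicate 1 or 2 and by library size alone. GRHL2 also left it without either NT sample or OE replicate 3, and HOXB13 without NT replicate 1 or 2. The 5.3% is from the fit of all 10 samples. These arms share no samples. Genes called in opposite directions in the 2 arms made up 1.72% of all tested genes, and no lineage factor was among them. SOX9 was the factor with opposite signs, and it was called in neither arm.

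**Figure D1:**
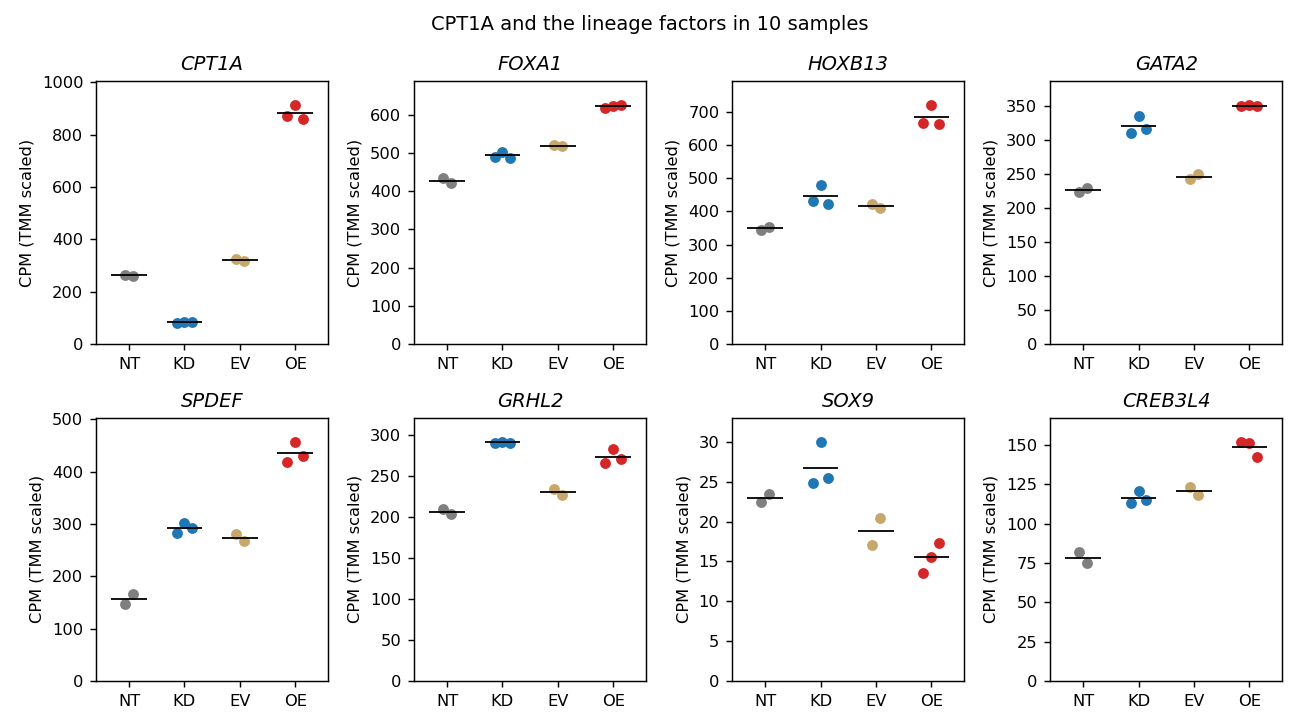
Levels of CPT1A and the 7 lineage factors in CPM scaled by TMM (vertical axes, each starting at 0) in the NT, KD, EV and OE lines, with 1 point for each of the 10 samples and a bar at the line mean. CPT1A is lowest in KD and highest in OE, whereas FOXA1, HOXB13, GATA2, SPDEF, GRHL2 and CREB3L4 are lowest in NT and SOX9 is lowest in OE.

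The first group is formed by FOXA1, GATA2 and HOXB13. FOXA1, a forkhead pioneer factor (chr14:37589552-37596059, minus strand, GRCh38), had 434 and 421 CPM in NT, 489, 504 and 488 in KD, 521 and 517 in EV, and 617, 622 and 625 in OE. The 4 lines did not overlap, in the order NT, KD, EV and OE. OE exceeded EV by 1.20-fold (log2 fold change 0.26 ± 0.04, adjusted p = 2.00e-05, edgeR's quasi-likelihood test with Benjamini-Hochberg adjustment), with all 3 OE samples above both EV samples. FOXA1 was among the smaller changes, and its call was lost without EV replicate 1 or 2 or OE replicate 1 or 3 (log2 fold changes of 0.26 to 0.28) and by library size alone (0.16). In bulk RNA, fewer cells expressing a factor and less of its RNA per cell cannot be told apart.

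GATA2, a zinc finger factor that also opens chromatin (chr3:128479427-128493201, minus strand), had 223 and 229 CPM in NT and 309, 335 and 316 in KD. In the other arm it had 243 and 249.5 CPM in EV and 349, 351 and 349 in OE. Both manipulated lines stood above both control lines without overlap, and the order was NT, EV, KD and OE. The changes were alike in size, 0.51 ± 0.05 in OE versus EV (adjusted p = 3.59e-09) and 0.50 ± 0.05 in KD versus NT (adjusted p = 1.59e-09, edgeR's quasi-likelihood test with Benjamini-Hochberg adjustment in each). The difference between these log2 fold changes was 0.01 ± 0.06 (adjusted p = 0.957, edgeR's quasi-likelihood test with Benjamini-Hochberg adjustment). GATA2 was thus 1.42-fold higher in each arm, and it kept both calls in the 10 fits that left out 1 sample.

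HOXB13, a homeobox factor of prostate identity (chr17:48724763-48728750, minus strand), had 345 and 354 CPM in NT, 433, 480.2 and 422 in KD, 421 and 409.7 in EV, and 665, 721 and 664 in OE. The OE samples stood far above the rest, and the lowest KD sample lay just above the higher EV sample. HOXB13 had the largest change of the 7 factors in OE versus EV, 1.64-fold (log2 fold change 0.72 ± 0.05, adjusted p = 1.87e-10), and rose 1.27-fold in KD versus NT (0.35 ± 0.05, adjusted p = 5.69e-06, edgeR's quasi-likelihood test with Benjamini-Hochberg adjustment). Without NT replicate 1 or 2, the second call was lost, with log2 fold changes of 0.33 and 0.37.

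The second group holds the factors of the secretory programme, SPDEF and CREB3L4. SPDEF, an ETS factor of secretory epithelia (chr6:34537802-34556333, minus strand), had 148 and 166 CPM in NT, 282, 301 and 292 in KD, 281 and 267 in EV, and 419, 457 and 429 in OE. NT was lowest and OE highest, while the highest EV sample lay just below the lowest KD sample. The line means of SPDEF spanned 2.77-fold, the widest span of the 7 factors. SPDEF was 1.59-fold higher in OE than in EV (0.67 ± 0.05, adjusted p = 5.93e-10) and 1.86-fold higher in KD than in NT (0.89 ± 0.06, adjusted p = 1.32e-12, edgeR's quasi-likelihood test with Benjamini-Hochberg adjustment).

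CREB3L4, a membrane-bound bZIP factor of the endoplasmic reticulum (chr1:153967534-153974361, plus strand), had 82.3 and 74.7 CPM in NT, 114, 121 and 115 in KD, 124 and 118 in EV, and 152, 151 and 143 in OE. The KD and EV samples overlapped, the NT samples lay below them, and the OE samples lay above. CREB3L4 rose 1.48-fold in KD versus NT (0.57 ± 0.05, adjusted p = 2.90e-09) and 1.23-fold in OE versus EV (0.30 ± 0.05, adjusted p = 4.46e-05, edgeR's quasi-likelihood test with Benjamini-Hochberg adjustment). The second call was lost without EV replicate 1 or 2 or OE replicate 1 or 2 (log2 fold changes of 0.27 to 0.34) and by library size alone (0.20). Exons of SLC39A1 and JTB on the opposite strand cover 9.65% and 3.2% of the CREB3L4 exons. Whether the counting used strand is not given in the sources used here, so these reads cannot be told apart.

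SPDEF and CREB3L4 were the 2 factors called as higher in OE versus EV, in KD versus NT and in EV versus NT, and their promoter windows are shown for that reason. RefSeq windows (GRCh38.p14, from 250 bases before the start site to 50 bases after it) were matched for 4 of the 7 factors, FOXA1, GATA2, SPDEF and CREB3L4. The SPDEF window is chr6:34556280-34556579 on the minus strand, and the CREB3L4 window is chr1:153968000-153968299 on the plus strand. Capitals mark the 50 bases from the start site on, and the sequences run 5′ to 3′.
SPDEF: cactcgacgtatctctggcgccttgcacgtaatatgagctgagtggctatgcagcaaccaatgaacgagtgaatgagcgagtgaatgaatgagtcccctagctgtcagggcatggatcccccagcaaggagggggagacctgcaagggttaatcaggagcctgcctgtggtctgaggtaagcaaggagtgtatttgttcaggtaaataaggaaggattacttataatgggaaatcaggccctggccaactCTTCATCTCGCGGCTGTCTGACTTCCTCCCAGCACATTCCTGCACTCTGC
CREB3L4: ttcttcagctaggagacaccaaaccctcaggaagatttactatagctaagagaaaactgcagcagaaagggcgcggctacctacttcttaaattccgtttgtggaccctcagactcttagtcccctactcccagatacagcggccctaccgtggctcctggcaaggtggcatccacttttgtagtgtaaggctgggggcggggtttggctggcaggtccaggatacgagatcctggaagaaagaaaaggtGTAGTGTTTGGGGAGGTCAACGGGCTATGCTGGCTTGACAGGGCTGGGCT

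The SPDEF window had 52% G and C bases and the CREB3L4 window 53.3%, below the median of 58.7% over all 35116 windows. The FOXA1 window had 69.3%, and the GATA2 windows at its separate start sites had 72.3% and 71.3%. Across these 5 windows, 8 motifs were searched on both strands, and 0 matches were found. The forkhead motif TGTTTAC was in 3.42% of all windows, the GATA motif AGATAA in 10.3%, the ETS motif ACCGGAAG in 2.17% and the grainyhead motif AACCGGTT in 0.134%. The SOX motif ACAATGG was in 3.16%, the bZIP motifs TGACGTCA and TGACGTGG in 1.85% and 0.729%, and the HOX13 motif CAATAAA in 4%. These letters are absent from the 5 windows, which says nothing about binding elsewhere.

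The third group is GRHL2, a grainyhead factor that maintains epithelial adhesion genes and lies on chromosome 8. It had 209.9 and 203 CPM in NT, 290.3, 292 and 290.2 in KD, 233 and 226 in EV, and 266, 283 and 271 in OE. The 4 lines did not overlap, and KD rather than OE was highest. GRHL2 rose 1.41-fold in KD versus NT (0.49 ± 0.05, adjusted p = 1.55e-09) and 1.19-fold in OE versus EV (0.25 ± 0.05, adjusted p = 5.97e-05, edgeR's quasi-likelihood test with Benjamini-Hochberg adjustment). The second call was the least steady of the 6 in that comparison. It was called in 3 of the 10 fits without 1 sample, being lost without any single sample of NT, EV or OE (log2 fold changes of 0.23 to 0.29) and by library size alone (0.15).

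SOX9, a high mobility group factor of prostate development (chr17:72121020-72126416, plus strand), had its highest level in KD and its lowest in OE. It had 22.4 and 23.4 CPM in NT, 24.8, 30.0 and 25.4 in KD, 17.0 and 20.5 in EV, and 13.6, 15.5 and 17.3 in OE. The KD samples stood above all others, and the OE and EV samples overlapped. Within the arms SOX9 had -0.27 ± 0.10 in OE versus EV (adjusted p = 0.0305) and 0.22 ± 0.10 in KD versus NT (adjusted p = 0.0549, edgeR's quasi-likelihood test with Benjamini-Hochberg adjustment). Without EV replicate 2 the first value was -0.14 (adjusted p = 0.435), and without KD replicate 2 the second was 0.13 (adjusted p = 0.197, edgeR's quasi-likelihood test with Benjamini-Hochberg adjustment). Its counts, 341 to 766 per sample, were the lowest of the 7 factors, and its standard errors were the largest.

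**Figure D2:**
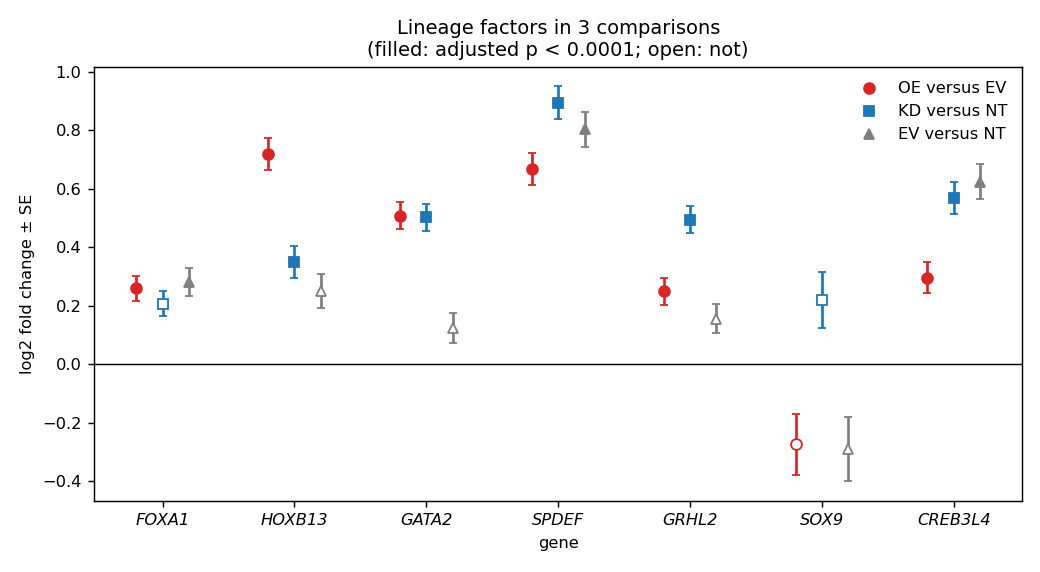
Log2 fold change with its standard error (vertical axis) of the 7 lineage factors in OE versus EV (circles), KD versus NT (squares) and EV versus NT (triangles), with filled marks at an adjusted p under 0.0001. HOXB13 has its largest value in OE versus EV (0.72), SPDEF in KD versus NT (0.89), and SOX9 is below 0 in OE versus EV and EV versus NT.

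The control lines differed from each other as well. EV versus NT shares its NT samples with KD versus NT and its EV samples with OE versus EV, so these comparisons are not independent. SPDEF, CREB3L4 and FOXA1, 3 of the 7 factors, were higher in EV than in NT at the same limit, where 5.25% of all tested genes were higher and 2.91% lower. SPDEF was 1.74-fold higher (0.80 ± 0.06, adjusted p = 2.38e-10) and CREB3L4 1.54-fold (0.62 ± 0.06, adjusted p = 1.46e-08, edgeR's quasi-likelihood test with Benjamini-Hochberg adjustment). For both genes this was about as large as the change in KD versus NT. FOXA1 was 1.21-fold higher (0.28 ± 0.05, adjusted p = 5.91e-05, edgeR's quasi-likelihood test with Benjamini-Hochberg adjustment), and its call held in 3 of the 10 fits without 1 sample, those without KD replicate 2, KD replicate 3 or OE replicate 2. In the other 7 its log2 fold change was 0.26 to 0.30. A filter of 10 counts in each sample also ended the FOXA1 call (0.27). HOXB13 had 0.25 ± 0.06 and was called only without KD replicate 2 (0.25), among the fits without 1 sample. GATA2 (0.12 ± 0.05) and GRHL2 (0.16 ± 0.05) were the factors nearest to equal in the controls. NT was the lowest line for 6 of the 7 factors, and SOX9 had -0.29 ± 0.11 (-0.17 without EV replicate 1).

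Set directly against each other, OE exceeded KD for 4 of the 7 factors, HOXB13, SPDEF, CREB3L4 and FOXA1, where 15.5% of all tested genes were higher in OE. SOX9 was lower in OE, 1 of the 7, where 16.4% of all tested genes were lower. By library size alone, the share of higher genes among all calls fell from 48.6% to 31%, the median of all genes moved by -0.13 on the log2 scale, GRHL2 was also called lower (-0.22), and CREB3L4 was not called (0.22). The log2 fold changes were 0.62 ± 0.05 for HOXB13, 0.58 ± 0.05 for SPDEF, 0.35 ± 0.05 for CREB3L4 and 0.33 ± 0.04 for FOXA1. FOXA1 had 0.20 by library size alone and was still called. SOX9 was 1.72-fold lower in OE than in KD (-0.79 ± 0.09, adjusted p = 5.93e-08, edgeR's quasi-likelihood test with Benjamini-Hochberg adjustment), with all 3 OE samples below all 3 KD samples. GATA2 (0.13 ± 0.04) and GRHL2 (-0.09 ± 0.04) were not called, and GATA2 stood at -0.0016 by library size alone. The lines differ in vector and selection drug as well as in CPT1A, and these cannot be told apart here.

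The difference between the arms was tested as the change in OE versus EV minus the change in KD versus NT. In edgeR, 0 of the 7 factors passed an adjusted p of 0.0001, where 15.9% of all tested genes did. At an unadjusted p under 0.05 there were 5 factors, as were 51% of all tested genes. By limma-voom there were 0 at 0.0001 and by DESeq2 there was 1 (HOXB13), where 15.3% and 17.6% of all tested genes passed. At an adjusted p under 0.05 there were 5, where 44.3% of all tested genes passed. HOXB13 changed more in the OE arm (0.37 ± 0.08, adjusted p = 3.03e-04), and SOX9 (-0.49 ± 0.14), CREB3L4 (-0.27 ± 0.07), GRHL2 (-0.25 ± 0.06) and SPDEF (-0.23 ± 0.08) had lower values in the OE arm than in the KD arm (adjusted p = 2.78e-03 to 0.0179, edgeR's quasi-likelihood test with Benjamini-Hochberg adjustment). HOXB13 passed 0.0001 without KD replicate 2, with 0.43. It also passed with a block for replicate number and without the filter on low counts (0.37 in each), where 18% and 11.1% of all tested genes passed. Of the other 4, 3 missed 0.05 when 1 sample was left out. SPDEF did so without NT replicate 1 (-0.14), EV replicate 1 (-0.17) or OE replicate 1 (-0.20), SOX9 without EV replicate 2 (-0.36), and CREB3L4 without NT replicate 2 (-0.21) or EV replicate 1 (-0.22). By library size alone GRHL2 (-0.38) and CREB3L4 (-0.41) passed 0.0001, while the median of all genes moved by -0.13 and the share of higher genes among all calls went from 43.6% to 24.6%. FOXA1 had 0.05 ± 0.06 and turned to -0.08 under that scaling, where HOXB13 had 0.24 and SPDEF had -0.36.

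**Figure D3:**
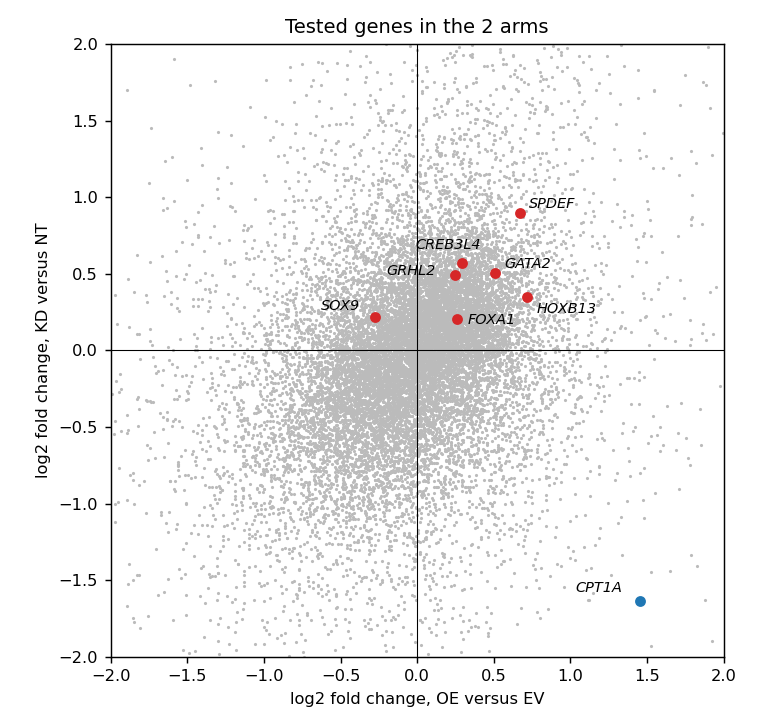
Log2 fold change in OE versus EV (horizontal axis) and in KD versus NT (vertical axis) for the tested genes, with 1 grey point for each of the 16714 genes within 2 of 0 on both axes, the lineage factors in red and CPT1A in blue. FOXA1, HOXB13, GATA2, SPDEF, GRHL2 and CREB3L4 lie in the quadrant above 0 on both axes, SOX9 is below 0 in OE versus EV, and CPT1A has 1.45 and -1.64.

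Levels of the factors were compared with each other per kilobase of annotated exon. HOXB13 had 162 ± 45.6 CPM per kb (SD over 10 samples) and SPDEF 159 ± 54.6, followed by FOXA1 with 119 ± 16.9. GATA2 had 60.1 ± 10.9 CPM per kb, above GRHL2 with 42.4 ± 5.77 and CREB3L4 with 41.2 ± 8.94. SOX9 was lowest, with 5.34 ± 1.31 CPM per kb. These spreads include the differences between lines, and the order depended on the line. GRHL2 stood above CREB3L4 in NT (34.1 ± 0.821 against 27.1 ± 1.84) and KD (48.0 ± 0.13 against 40.1 ± 1.33), and below it in EV (38.0 ± 0.848 against 41.7 ± 1.27) and OE (45.1 ± 1.42 against 51.2 ± 1.82). In NT, HOXB13 had 115 ± 2.11 CPM per kb, FOXA1 96.9 ± 2.14 and SPDEF 82.0 ± 6.98. In the other lines the SPDEF mean was slightly above that of HOXB13, within their SD in KD (152 ± 5.05 against 146 ± 10.2) and OE (227 ± 10.4 against 225 ± 10.6), and by 143 ± 5.4 against 137 ± 2.66 in EV. FOXA1 had 141 ± 0.915 in OE.

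Genes whose profile over the 10 samples was most like that of a factor were sought among 12609 genes, by the root mean square difference of centred log2 CPM. For SPDEF they were KLK2, which encodes a luminal kallikrein, at 0.06, SLC9A3R2 at 0.08 and CNTNAP2 at 0.08. For HOXB13 they were SDF4 (0.03), SLC52A2 (0.04) and ISG15 (0.05), and for GATA2 they were HDGF (0.03), COQ8B (0.04) and FAM155B (0.04). FOXA1 was followed by CIC (0.03), MCM3AP (0.04) and WIPF2 (0.04), and CREB3L4 by MYO1C (0.05), NAGLU (0.06) and MMEL1 (0.06). SOX9 had no neighbour as close, with XXYLT1 and GLO1 among its nearest at 0.12 each. GRHL2 was not searched, since its line means spanned under 0.5 on the log2 scale.

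The 7 factors lie on 6 chromosomes, with HOXB13 and SOX9 both on chromosome 17. Tested genes within 2 Mb of each were read in a window chosen after the factors' values were seen. Around FOXA1 the median of 15 genes was -0.29 in the OE arm and -0.13 in the KD arm, and around GRHL2 that of 22 genes was -0.19 and -0.13, so both factors had the opposite sign to the median of their neighbours. SPDEF had 58 such genes, with medians of 0.22 and 0.15, and CREB3L4 had 64, with 0.24 and 0.15. HOXB13 had 61, also with 0.15 and 0.16. GATA2 had 29, with -0.02 and 0.07. SOX9 had 7, with 0.08 and 0.53. Of the 4 factors with positive medians in both arms, HOXB13, SPDEF and CREB3L4 were above the median in both arms and SOX9 was below it in both.

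HOXB13 is at the end of the HOXB cluster, beside PRAC1 and PRAC2, which encode small prostate-expressed proteins. Of 11 genes of the cluster and its neighbours, 7 were tested. PRAC2, the neighbour of HOXB13 on the opposite strand, was the 1 called in OE versus EV (1.46 ± 0.13, higher, as were 11.6% of all tested genes), with 78 and 82 counts in EV and 221, 197 and 220 in OE. In KD versus NT, 2 were lower, HOXB9 with -0.89 ± 0.10 and PRAC1 with -0.52 ± 0.10, as were 12.8% of all tested genes, whereas HOXB13 was higher in both arms. Over the 7 tested genes the median was 0.28 in the OE arm and -0.15 in the KD arm, beside -0.02 in each over all tested genes.

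Paralogs of the factors were read beside them. Of 28 paralogs, 16 were tested and 12 were not. FOXA3 had 0 counts in all 10 samples, FOXA2 had at most 1 count, and GATA3 had 2 to 10. CREB3 (0.58 ± 0.08) and CREB3L2 (0.32 ± 0.06), both of the CREB3L4 family, were the 2 of 16 called as higher in OE versus EV, where 11.6% of all tested genes were. In KD versus NT, 2 were higher, CREB3L1 with 2.56 ± 0.35 (7 and 7 counts in NT and 36, 52 and 44 in KD) and SOX13 with 0.45 ± 0.07, as were 16.4% of all tested genes. The ETS factors ETV5 (-1.96 ± 0.38) and ELF3 (-0.61 ± 0.12) were the 2 lower, as were 12.8% of all tested genes. Both lay just under the limit (adjusted p = 9.94e-05 and 9.19e-05, edgeR's quasi-likelihood test with Benjamini-Hochberg adjustment). ETV5 had 30 and 32 counts in NT and 7, 4 and 14 in KD. It also had -1.53 ± 0.36 in OE versus EV without a call. The median of the 16 was -0.06 in the OE arm and 0.05 in the KD arm, beside 0.30 and 0.49 for the 7 factors.

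CREB3L4 is released from its membrane by the site-1 and site-2 proteases. Of 6 genes of this processing step and family, 2 were higher in OE versus EV, the CREB3 and CREB3L2 given above, where 11.6% of all tested genes were. In KD versus NT, CREB3L1 and the site-1 protease gene MBTPS1 (0.37 ± 0.05) were higher. MBTPS1 was also higher in EV than in NT (0.49 ± 0.06), as were 5.25% of all tested genes. CREB3L1 had 1.74 ± 0.42 in that comparison without a call. The site-2 protease gene MBTPS2 had -0.37 ± 0.08 in the OE arm and 0.19 ± 0.07 in the KD arm, without a call in either. ATF6, a stress sensor cut by the same proteases, was lower in KD (-0.86 ± 0.05), while CREB3L4 rose. Over all tested genes 16.4% were higher and 12.8% lower in KD. The 6 genes had medians of 0.09 in the OE arm and 0.12 in the KD arm, beside -0.02 in each over all tested genes.

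Other luminal and epithelial factors were also mixed. Of 13, 12 were tested, with 2 higher in OE versus EV (11.6% of all tested genes) and 3 higher and 2 lower in KD versus NT (16.4% and 12.8% of all tested genes). Their medians were 0.11 and 0.13, beside -0.02 in each arm over all tested genes. OVOL1, a zinc finger repressor of epithelia, rose by 0.72 ± 0.11 in OE versus EV and by 0.76 ± 0.11 in KD versus NT, as GATA2 did. XBP1, a factor of the secretory stress response, rose by 0.62 ± 0.06 in OE versus EV and fell by 0.67 in KD versus NT, where CREB3L4 rose. TFAP2C rose in KD versus NT (0.51 ± 0.07), and ELF3, given above, fell.

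**Figure D4:**
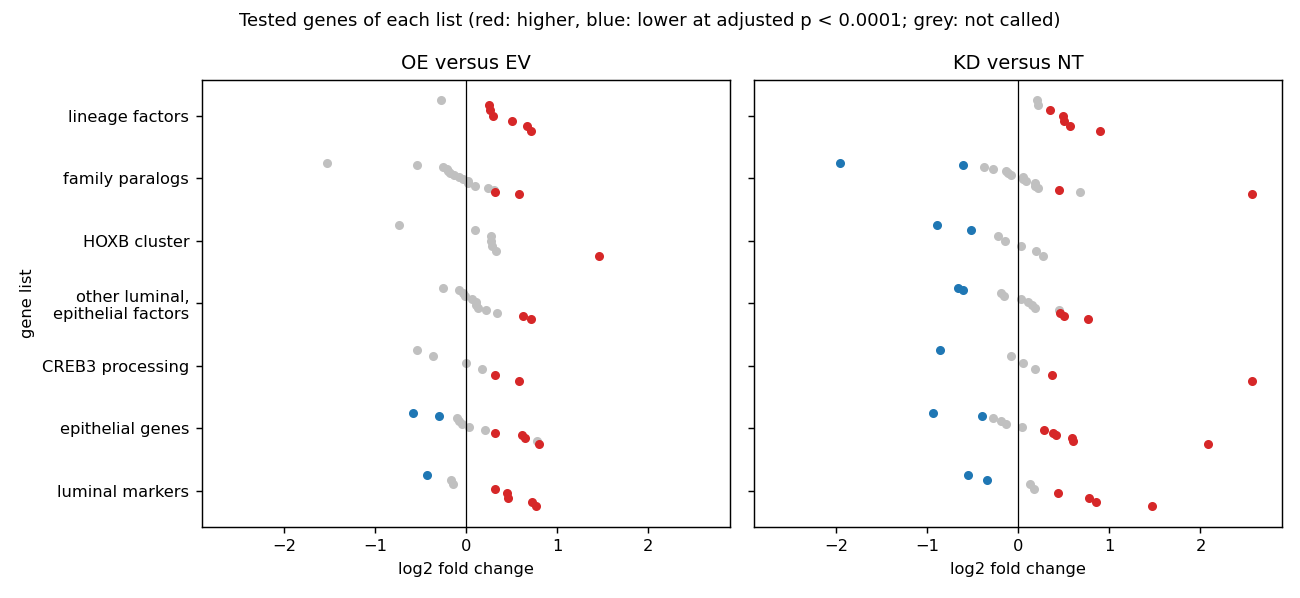
Log2 fold change (horizontal axis) of each tested gene of the lineage factors and of 6 other lists in OE versus EV (left) and KD versus NT (right), red where higher and blue where lower at an adjusted p under 0.0001 and grey where not called. The called lineage factors are all to the right of 0 in both panels.

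Epithelial genes, several of them known targets of GRHL2, were examined beside it. Of 12 junction and splicing genes, 4 rose and 2 fell in OE versus EV, where 11.6% and 10.3% of all tested genes did. In KD versus NT 6 rose and 2 fell, where 16.4% and 12.8% did. The medians were 0.12 and 0.16, beside -0.02 in each arm over all tested genes. In EV versus NT, 4 were higher and 1 lower, where 5.25% and 2.91% of all tested genes were. Of the 3 tight junction genes in the list, 2 rose in both arms as GRHL2 did, CLDN4 by 0.64 ± 0.06 in the OE arm and 0.61 ± 0.06 in the KD arm, and CLDN3 by 0.80 ± 0.06 and 0.59 ± 0.06. Unlike GRHL2 (0.16 ± 0.05, not called), CLDN4 (0.53 ± 0.06) and CLDN3 (0.64 ± 0.07) were also called as higher in EV versus NT. The other, CLDN7, rose by 0.61 ± 0.05 in the OE arm and had -0.19 ± 0.05 in the KD arm without a call. EPCAM (-0.58 ± 0.06) and ESRP2 (-0.30 ± 0.05) were lower in OE versus EV, and ESRP2 was higher in KD versus NT (0.28 ± 0.05). The splicing factor ESRP1 (-0.93 ± 0.04) and DSP (-0.40 ± 0.05) were lower in KD versus NT, where KRT19 was higher (2.08 ± 0.19). In EV versus NT, ESRP1 was also lower (-0.38 ± 0.05) and KRT19 also higher (1.41 ± 0.22), and DSP had -0.22 ± 0.05 without a call.

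The label of luminal prostate cells was checked against markers. The 8 luminal markers read were all tested, and 5 rose and 1 fell in OE versus EV (11.6% and 10.3% of all tested genes), 4 rose and 2 fell in KD versus NT (16.4% and 12.8%), and 5 were higher in EV than in NT (5.25%). Their median was 0.39 in the OE arm and 0.30 in the KD arm, beside -0.02 in each over all tested genes. Their summed level was 6084 and 6336 CPM in NT, 8155, 8864 and 8539 in KD, 8489.8 and 8118 in EV, and 11080.1, 11397 and 11041 in OE. The sum was lowest in NT and highest in OE, as were FOXA1, HOXB13, GATA2, SPDEF and CREB3L4, and its part in the levels of these factors was not tested. Without KLK3 the sum was 3729 and 3759.8 CPM in NT, 3921, 4215 and 4097 in KD, 5003 and 4782 in EV, and 5324, 5451 and 5309.8 in OE, so the KD samples stood nearer to NT than to EV. KLK3, the prostate-specific antigen gene and the most abundant of the list, was 0.77 ± 0.05 higher in OE versus EV, and KLK2 was 0.72 ± 0.06 higher. In KD versus NT they were 0.85 and 0.78 higher. SLC45A3 rose by 1.47 ± 0.05 in KD versus NT, and STEAP2 fell by 0.43 in OE versus EV and by 0.35 in KD versus NT, where FOLH1 fell by 0.55.

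Markers of other cell types differed in level, and only the basal list had a sum near 0. The basal markers summed to 0.771 to 2.37 CPM, KRT14 being the most abundant on average over the 10 samples (9 to 47 counts, and below LAMB3 in the first NT sample) and higher in KD versus NT (1.97 ± 0.32), while KRT5 had 0 counts in all 10 samples and TP63 at most 1. The neuroendocrine list summed to 34.6 to 42.5 CPM, but 9 to 10 of its 13 markers had at most 3 counts in each sample. NEUROD1, MYCN and CHGB had 0 counts in all 10 samples. ONECUT2, the most abundant on average over the 10 samples, had 15.8 to 22.4 CPM, and CHGA had at most 1 count. DLL3 was 0.55 ± 0.09 higher in OE versus EV and stood above ONECUT2 in the 3 OE samples. Stromal, endothelial and immune markers summed to 16.3 to 27.02 CPM, led by COL1A1, which was 0.63 ± 0.10 higher in KD versus NT. Of these 12 markers, 7 to 9 had at most 3 counts in each sample, and PECAM1, CD3E and COL1A2 had 0 in all 10 samples. The mesenchymal list was mostly FN1, with 1135 and 1149.5 CPM in NT, 2003, 2199 and 1992 in KD, 493 and 524 in EV, and 1425, 1496 and 1443 in OE. FN1 was higher in the OE arm (1.52 ± 0.05) and in the KD arm (0.85 ± 0.05), as were 5 of the lineage factors, and lower in EV than in NT (-1.17 ± 0.06), unlike SPDEF, CREB3L4 and FOXA1. The other mesenchymal genes together had 35.6 to 85.4 CPM. VIM was lower in KD than in NT (-1.16 ± 0.07), and also in EV than in NT (-1.24 ± 0.07). SNAI2 was higher in KD than in NT (1.57 ± 0.28) and had 1.33 ± 0.31 in EV versus NT without a call. For both genes NT stood apart from the other 3 lines.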

How the data were processed

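The authors trimmed read pairs with BBDuk, mapped them with STAR (version 2.6.0a in the submitters' processing notes) to hg38 and deposited whole-number counts per gene symbol for 10 samples. Strandedness is not given in the sources used here. Samples were grouped by the line in their labels, and 0 columns were left out. After filterByExpr and TMM scaling, the quasi-likelihood F test of edgeR 4.0.16 (R 4.3.3) was run with 1 mean per line over all 10 samples and Benjamini-Hochberg adjustment over 17230 genes. A call is an adjusted p under 0.0001, the study's limit. The biological coefficient of variation common to all genes was 0.0446. The functions were tested on simulated data. Replicates differed beyond sampling noise (chi-square per degree of freedom 1.99 to 6.63, highest for KD replicate 2). Alternatives were other scalings and filters, DESeq2 1.42.0, limma-voom (limma 3.58.1), each arm alone, a replicate block, a limit of 0.05 and leaving out each sample. Members and lists were chosen with earlier results of these data known, and some genes, 1 list and 1 motif were taken out after the values were seen and are not reported here. Besides the factors and CPT1A, up to 2 called genes with the largest change each way in each arm are named from a list. Markers near 0 and the most abundant marker of a list are also named, as are some list genes that passed for the difference between the arms. The genes most like a factor are the 3 nearest with an average log2 CPM of at least 1, where its line means span 0.5 or more. CLDN7, MBTPS2, the KD arm of CLDN3, ESRP2 and KLK2 and the OE arm of ETV5 were added after the values were known. So were the EV versus NT values of CLDN3, CLDN4, KRT19, ESRP1, DSP, MBTPS1 and CREB3L1, the line means of SLC45A3 and the counts of ETV5. Positions and exon lengths came from GENCODE on GRCh38, and promoter windows from RefSeq.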

Additional observations from a re-analysis of the deposited data

Results flagged for a closer look

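The 2 arms were compared by the change in OE versus EV minus the change in KD versus NT for 39 named genes, and 13 of them differed at an adjusted p under 0.0001 (edgeR's quasi-likelihood test with Benjamini-Hochberg adjustment), as did 15.9% of all tested genes. Most of these genes are named for a large change in 1 arm, which favours a difference between the arms, so the 2 shares are not compared. None of the 7 lineage factors was among the 13 in edgeR, where 5 had an unadjusted p under 0.05, as did 51% of all tested genes, and limma-voom called 0 and DESeq2 1, beside 15.3% and 17.6% of all tested genes. Beside HOXB13, the difference was 1.26 for PRAC2, 1.23 for HOXB9 and 0.80 for PRAC1 on the log2 scale, all higher in the OE arm, as the HOXB13 value of 0.37 was without passing the limit. In the CREB3L4 family and its processing, it was 0.67 for CREB3, 0.86 for ATF6 and -3.10 for CREB3L1, which rests on 7 to 52 counts per sample. Among the other luminal factors it was 1.29 for XBP1. The epithelial splicing factors went apart, with 0.97 for ESRP1 and -0.58 for ESRP2. For the luminal markers it was -1.02 for SLC45A3, whose NT level stood apart, and 0.41 for FOLH1. For the mesenchymal genes it was 0.66 for FN1 and 1.03 for VIM. Genes of the lists outside the 39 also passed, CLDN7 with 0.80, ZBTB16 with -0.46, EHF with -0.43 and TMPRSS2 with -0.59.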

How the results depend on the processing

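Over all alternatives with a value, the log2 fold changes of the 7 factors kept their direction and their side of the limit in 599 cases, lost the call in 29, gained it in 25 and changed sign in 5. The sign changes were GATA2 in OE versus KD (-0.0016 by library size alone), FOXA1 in the difference between the arms by library size alone (-0.0807), and GATA2 there by library size alone (-0.13). Leaving out 1 sample turned the difference for GATA2 without NT replicate 2 (-0.0136) or KD replicate 1 (-0.00829), with -0.0136 to 0.0381 over the 10 fits. None of these 5 was called in the fit with TMM. Factors called in OE versus EV numbered 6, and 3 by library size alone, and 3 to 6 when 1 sample was left out. Leaving out 1 sample gave 4 to 5 in KD versus NT, 2 to 4 in EV versus NT, 5 in OE versus KD in each fit, and 0 to 1 for the difference between the arms. The share of all tested genes called moved in the same fits, 21.9% becoming 9.73% to 28.9% in OE versus EV, 29.1% becoming 17.5% to 31.1% in KD versus NT, 8.16% becoming 2.84% to 14.2% in EV versus NT, 31.9% becoming 25.9% to 36.3% in OE versus KD, and 15.9% becoming 10% to 21.5% for the difference. At 0.0001 the difference had 0 factors, and 2 by library size alone, 1 without a filter, 1 with the DESeq2 Wald test and 1 with the replicate block (HOXB13, 0.37). A limit of 0.05 in its place gave 6 in EV versus NT (5 higher and SOX9 lower, where 18.5% and 15.5% of all tested genes were) and 5 for the difference (44.3% of all tested genes). The replicate block changed no other call of a factor, and same-numbered samples did not deviate together (mean correlation of residuals -0.0028 over 13 pairs, -0.04 to 0.08). The replicate numbers are therefore not read as pairs. The difference between the arms needs all 4 lines and has no fit of each arm alone. Where a sample of NT or EV is left out, the lone control is assumed to vary like the other lines. Line means moved by more than 1 SD for 11 of 28 values when CPM were scaled by library size alone, and counts for the other lists stayed within 1.5 times in 830 cases and moved further in 110. SOX9 and the genes with few counts have the widest errors, so small changes of these may be missed. The cause of these dependences was not tested.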
